A study of Mus musculus with 17 samples.

Results

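p53 and its target genes were followed as a set of 38 listed genes, all of which were found among the 55416 genes of the count files. The set holds Trp53 itself, its negative regulators Mdm2, Mdm4 and Ppm1d, and 34 other genes that are established transcriptional targets of p53. It was given by name, but the members were chosen with earlier results of these data known, so the set is not independent of them. The cells were Rpl31-FTA E14Tg2a.4 mouse embryonic stem cells, an established line whose ribosomal protein Rpl31 is fused to FLAG-TEV-AviTag. Their medium held serum and leukemia inhibitory factor. ALIBi, a system that biotinylates tagged ribosomes at a chosen place in the cell, was targeted to the endoplasmic reticulum (ER) in every library. Polyadenylated RNA was sequenced from the purified ER ribosomes and, from the same lysates, from the whole cell.

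The siRNA treatments were compared, namely scramble, Nmd3 and Gnl3. Nmd3 is the adaptor that exports the large ribosomal subunit from the nucleus, and Gnl3 (nucleostemin) is a nucleolar GTPase. ER ribosome-bound RNA was measured in 2 scramble libraries (replicates 2 and 3), 3 Nmd3 libraries and 3 Gnl3 libraries. Whole-cell RNA was measured in 3 libraries of each siRNA. All groups share the tag and the ER-targeted labelling, so no group here is an unmodified cell. The labels call the replicates biological, without saying whether they were separate cultures, so p-values measure the spread between these samples. The dose and duration of the siRNA treatments are not given in the sources used here.

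p53 is a transcription factor that is held at a low level by Mdm2, which marks it for degradation, and by Mdm4, which blocks its activity. When DNA is damaged, or when ribosome assembly is disturbed and free ribosomal proteins of the 5S particle bind Mdm2, p53 protein builds up and raises the transcription of genes for cell cycle arrest, apoptosis, DNA repair and metabolism. Mdm2 is itself a target, which closes a feedback loop. The regulation of p53 is largely at the level of the protein, which RNA-seq does not measure. In embryonic stem cells p53 mRNA is abundant.

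Library totals ran from 15.2 to 29.9 M gene counts. The submitters' descriptions mark 2 whole-cell libraries, Gnl3 replicate 3 and Nmd3 replicate 2, as left out of their own work as outliers on a principal component plot. These correlated with the other whole-cell libraries at 0.924 to 0.951 (log2 scale, across genes), against 0.993 to 0.997 among the rest. Mitochondrial transcripts took 6.14% and 0.769% of their counts, against 1.15% to 2.03% elsewhere in whole-cell RNA. The main values below are without them, and what the whole-cell comparisons gave with them is stated after each group of results. The siRNA targets fell as labelled in every library used. Nmd3 was at 24.1 to 25.2 counts per M gene counts (CPM) on ER ribosomes after its siRNA and at 120 to 124 in scramble, a log2 change of -2.29 (SE 0.06, adjusted p = 2.44e-20), and in whole-cell RNA the change was -1.81 (SE 0.07). Gnl3 was at 26.9 to 31.6 CPM after its siRNA and at 170 to 177 in scramble on ER ribosomes, a log2 change of -2.58 (SE 0.24, adjusted p = 0.0092), and in whole-cell RNA the change was -2.10 (SE 0.08). In Nmd3 ER replicate 2, Gnl3 stood at 263 CPM, above the 164 and 180 of the other Nmd3 ER libraries. Defining genes of stem cells (Pou5f1, Nanog, Sox2 and 5 others) summed to 5990 to 9420 CPM, with lower sums in the Gnl3 libraries than in scramble in both fractions (8410 to 8790 against 9150 to 9410 on ER ribosomes, 5990 to 6330 against 6450 to 6630 in whole-cell RNA). Pou5f1, Nanog, Zfp42, Esrrb and Dppa5a were lower in both fractions, whereas Sox2, Klf4 and Tdgf1 overlapped with scramble in both. The sums of 6 fibroblast genes were higher in the Gnl3 libraries than in scramble (36.2 to 38.6 against 32.6 to 33.4 on ER ribosomes, 17.8 to 18.1 against 16.5 to 17.4 in whole-cell RNA), with Lum at 0 in 5 of the 6 groups. The Nmd3 libraries were also above scramble on ER ribosomes (35.1 to 39.7) and were below it in whole-cell RNA (12.6 to 15). Most of each sum was Thy1, which overlapped between Gnl3 and scramble in whole-cell RNA (12.8 and 13.9 against 13.2, 14.1 and 13.0 CPM). The part of these sums in the changes after Gnl3 siRNA was not tested. Genes of primitive endoderm summed to 9.59 to 14.2 CPM, of epiblast or germ layers to 46.6 to 86.2 and of 2-cell-like cells to 8.24 to 19.6.

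Trp53 mRNA did not differ after either siRNA at the adjusted p threshold of 0.05, set over all genes tested with the quasi-likelihood test of edgeR. In whole-cell RNA, Trp53 (ENSMUSG00000059552.14) was at 372, 364 and 382 CPM in the 3 scramble libraries, at 379 and 386 after Gnl3 siRNA, and at 301 and 381 after Nmd3 siRNA. On ER ribosomes it was at 482 and 499 in scramble, at 522, 477 and 490.3 after Gnl3 siRNA, and at 477, 494 and 488 after Nmd3 siRNA. The groups overlapped on ER ribosomes, and in whole-cell RNA Nmd3 replicate 1 lay below all others. The log2 change of Trp53 was 0.01 (SE 0.04) after Gnl3 siRNA and 0.00 (SE 0.04) after Nmd3 siRNA on ER ribosomes. In whole-cell RNA it was 0.04 (SE 0.08) and -0.13 (SE 0.08). Without Nmd3 whole-cell replicate 3, which leaves replicate 1 alone in that group, the change after Nmd3 siRNA was -0.33 (adjusted p = 0.000186), so the call for Trp53 rests on which of these libraries is used. That fit called 5.7% of all genes, against 0.166% with both libraries. With both libraries that the submitters left out, the whole-cell changes of Trp53 were -0.05 after Gnl3 siRNA and -0.19 after Nmd3 siRNA (adjusted p = 0.999 and 0.852). Replicate 1 also had the lowest mitochondrial share of the libraries kept, 1.15%, and the part of this in the value was not tested.

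Levels were compared between genes per kilobase of coding length, in scramble whole-cell RNA. Rps27l, a ribosomal protein paralogue, was highest at 710 CPM per kb, followed by the peroxidase Gpx1 (557), the pore-forming apoptosis protein Bax (434) and Trp53 (318). Cdkn1a (88.1) and Mdm2 (81.6) lay lower, and the death receptor Fas (0.321), the immune ligand Cd80 (2.29) and the Kit ligand Kitl (2.73) were lowest. Fas was listed at 2 to 11 reads per scramble whole-cell library and was not tested in that fraction, which leaves 37 members tested there and 38 on ER ribosomes.

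The promoters of the members were searched for the p53 response element decamer, the 10-base motif of which p53 binds pairs. RefSeq entries of 300 bases (250 before to 50 after a start site, GRCm38.p6) matched 30 of the 38 members. An exact decamer stood in the promoters of 13 of them, 43.3%, against 9.55% of all 27025 genes with an entry. An adjacent pair with at most 2 mismatches in 20 bases, each decamer keeping its CNNG core, stood in 5 of the 30, 16.7%, against 0.392% of all genes (106 genes). The decamer is its own reverse complement, so both strands are covered, and an exact decamer can be part of a pair. A gene with several entries was counted if any of them held the motif. Ddb2, Perp, Pmaip1, Rrm2b, Tnfrsf10b, Trp53inp1, Xpc and Zmat3 had no entry. The 5 members with a pair are printed. In the main fits 3 of them rose after Gnl3 siRNA (Ccng1, Cd80 and Gtse1), and 2 were not called against scramble after either siRNA (Cdkn1a and Rps27l). In whole-cell RNA, edgeR called Rps27l higher after Gnl3 siRNA with no filter on low counts (0.25, adjusted p = 0.00825). It also did so with only the Gnl3 and scramble libraries fitted (0.25, adjusted p = 0.00261). Capitals mark the pair, and for Gtse1, whose pair crosses the start site, 30 bases are shown.
Ccng1, chr11:40755442-40755501, minus strand: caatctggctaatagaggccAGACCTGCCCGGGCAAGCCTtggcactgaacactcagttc
Cd80, chr16:38458802-38458861, plus strand: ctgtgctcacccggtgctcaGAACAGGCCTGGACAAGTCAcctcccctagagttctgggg
Gtse1, chr15:85859940-85859969, plus strand: accggGAGCAAGTTGGGGCTTGCCTctgac
Cdkn1a, chr17:29090908-29090967, plus strand: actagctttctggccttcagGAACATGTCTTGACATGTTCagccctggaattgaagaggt
Rps27l, chr9:66946276-66946335, plus strand: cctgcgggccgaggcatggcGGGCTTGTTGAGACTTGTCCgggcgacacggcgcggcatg
The pair in Cd80 has 2 mismatches and each of the others has 1. Of the 11 members with a promoter entry that rose after Gnl3 siRNA in either fraction, 4 held an exact decamer and 3 a pair. Of the other 19, 9 held a decamer and 2 a pair. Perp and Trp53inp1, which also rose, had no entry and are in neither count. Cdkn1a, Gtse1 and Rps27l each had another entry with neither a decamer nor a pair. A match describes the letters of the window and is not a measured binding site.

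After Gnl3 siRNA the p53 target genes shifted upward on ER ribosomes. Of 38 members, which were chosen with earlier results of these data known, 12 rose and 1 fell. Over all 17632 genes tested in this comparison 2.68% were called, 1.51% higher and 1.17% lower. The median log2 change of the 38 was 0.20, against 0.00 for all genes, and 31 of the 38 values were above 0. The members that rose were Mdm2, 4 of 7 cell cycle genes (Plk2, Btg2, Gtse1 and Psrc1), 5 of 12 apoptosis genes (Perp, Trp53inp1, Phlda3, Bbc3 and Ei24) and 2 of 3 surface ligands and receptors (Cd80 and Epha2). None of the 5 DNA repair genes and neither of the 2 RNA and ribosome genes was called. When only the Gnl3 and scramble libraries were fitted, 22 members rose and 2 fell, where 7.6% of all genes were called. The 11 members added were Aen, Ccng1, Dcxr, Fas, Mdm4, Pmaip1, Polk, Ppm1d, Tnfrsf10b and Zmat3, which rose, and Gpx1, which fell. Polk also passed with no filter on low counts (adjusted p = 0.0489). In 27 members every Gnl3 library lay above both scramble libraries, in 4 every Gnl3 library lay below, and 7 overlapped. Of all genes tested, 19.4% lay above in this way and 16.1% below. In bulk RNA, a larger share of cells with the transcript and more of the transcript per cell cannot be told apart.

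**Figure D1:**
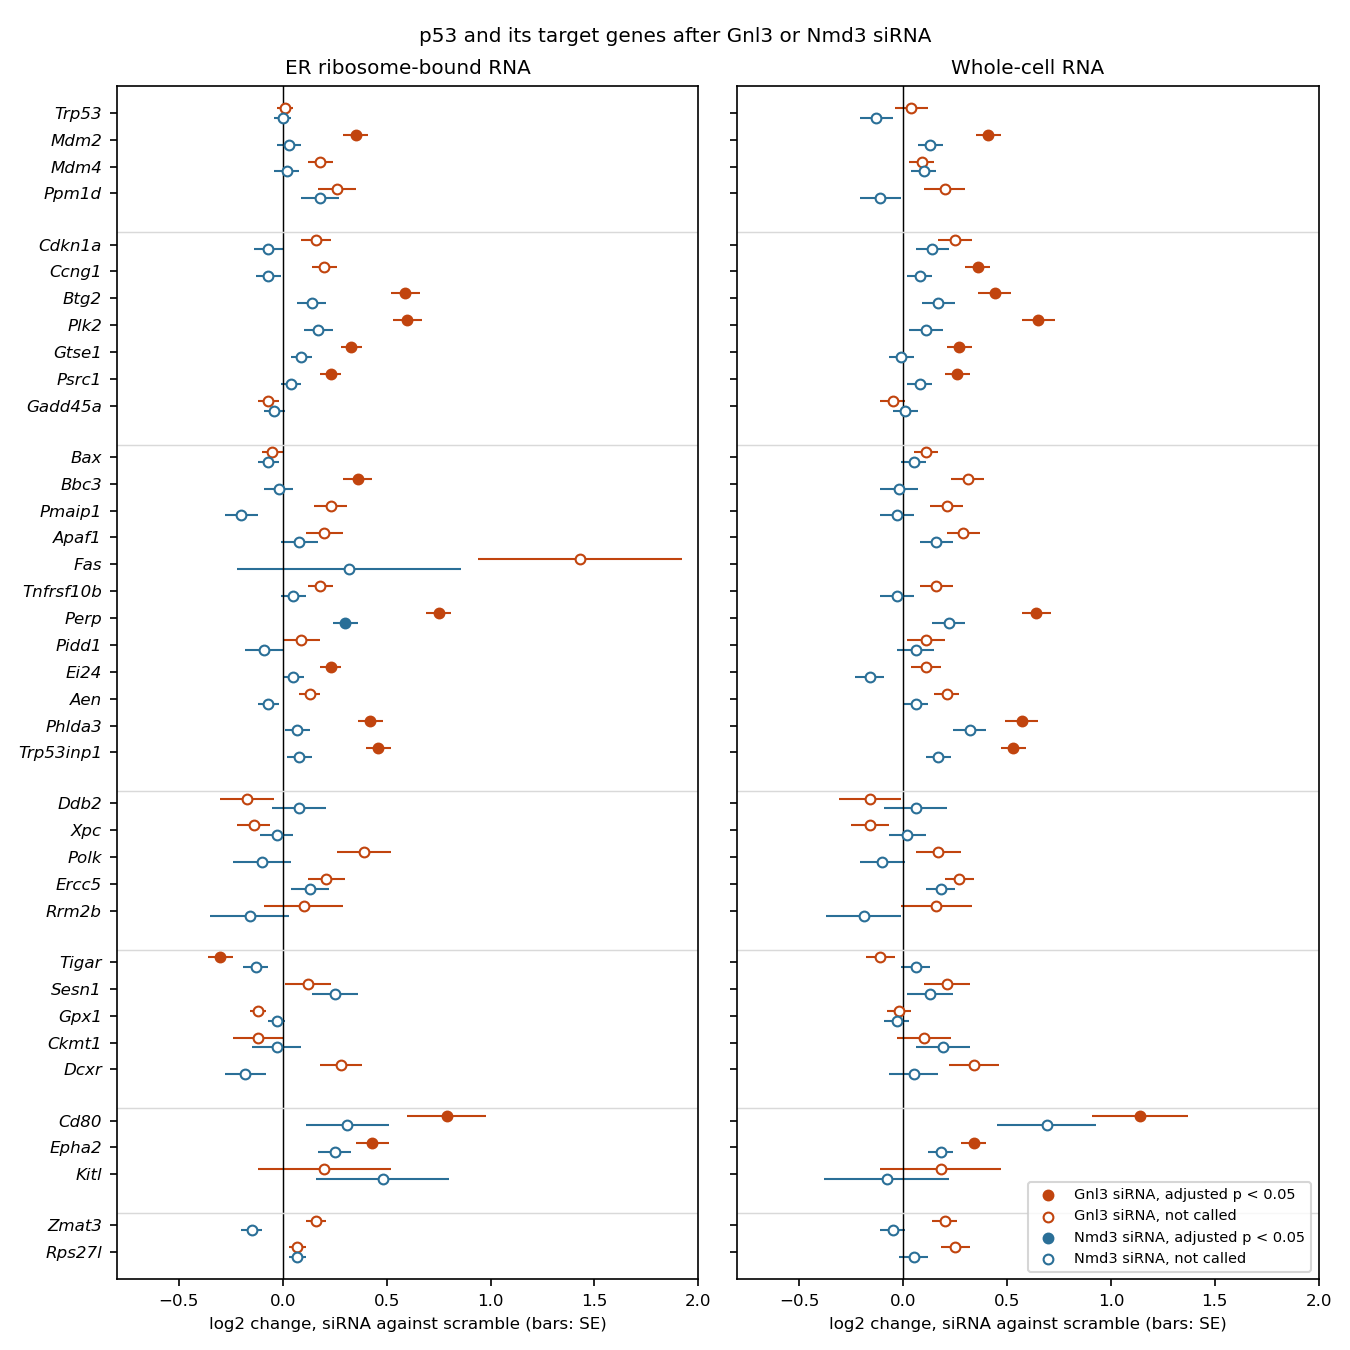
Log2 change with its SE (x axis) of each member (rows, grouped by role) after Gnl3 siRNA (red) or Nmd3 siRNA (blue) against scramble, on ER ribosomes (left) and in whole-cell RNA (right). Filled points passed an adjusted p of 0.05. Fas was not tested in whole-cell RNA, 12 members were called higher and 1 lower after Gnl3 siRNA on ER ribosomes, and Perp alone was called after Nmd3 siRNA.

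In whole-cell RNA, 11 of the 37 members tested rose after Gnl3 siRNA and none fell. Over all 17490 genes tested there 0.812% were called, 0.515% higher and 0.297% lower. The median log2 change of the members was 0.21, against 0.00 for all genes. In 26 members both Gnl3 libraries lay above the 3 scramble libraries, in 2 (Xpc and Tigar) both lay below, and 10 overlapped. Of all genes tested, 13% lay above and 14.1% below. Of the members called, 10 were called in both fractions: Mdm2, Btg2, Plk2, Gtse1, Psrc1, Perp, Phlda3, Trp53inp1, Cd80 and Epha2. Bbc3 and Ei24 were called on ER ribosomes and not in whole-cell RNA, and Ccng1 the reverse. The calls of Bbc3 and Ccng1 depended on the settings. Bbc3 passed in whole-cell RNA with the replicate block (adjusted p = 0.0312), with no filter (0.0295) and with only the groups compared (0.021), and Ccng1 passed on ER ribosomes under the last 2 of these (0.0144 and 0.000537). With only the groups compared, 17 members rose in whole-cell RNA, where 1.58% of all genes were called. The 6 members added were Aen, Apaf1, Bbc3, Ercc5, Rps27l and Zmat3. Apaf1 and Rps27l also passed with no filter (adjusted p = 0.0434 and 0.00825). These differences between fractions were tested by the interaction given further below, which called no member.

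Mdm2, the ubiquitin ligase that limits p53, rose in both fractions. On ER ribosomes Mdm2 (ENSMUSG00000020184.16) was at 125 and 129 CPM in scramble and at 169.5, 157 and 164 after Gnl3 siRNA. The whole-cell values were 121, 115 and 123 in scramble and 168 and 149.9 after Gnl3 siRNA. All Gnl3 libraries lay above all scramble libraries of their fraction. The log2 change was 0.35 (SE 0.06, adjusted p = 0.00289) on ER ribosomes and 0.41 (SE 0.06, adjusted p = 0.00024) in whole-cell RNA. Mdm4 had log2 changes of 0.18 (SE 0.06, adjusted p = 0.142) and 0.09 (SE 0.06, adjusted p = 0.765). Ppm1d, the phosphatase that switches p53 signalling off, had 0.26 (SE 0.09, adjusted p = 0.132) and 0.20 (SE 0.10, adjusted p = 0.571).

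Among the cell cycle genes, Cdkn1a, the p21 inhibitor of cyclin-dependent kinases and the best-known p53 target, was not called. On ER ribosomes Cdkn1a (ENSMUSG00000023067.15) was at 51.3 and 53.7 CPM in scramble and at 57.7, 60.9 and 58.1 after Gnl3 siRNA. Its whole-cell values were 40.1, 41.7 and 44.4 in scramble and 50.9 and 49.3 after Gnl3 siRNA. Every Gnl3 library used lay above every scramble library of its fraction, by a small margin, whereas the left-out Gnl3 whole-cell replicate 3, at 35.5 CPM, lay below them. The log2 change was 0.16 (SE 0.07, adjusted p = 0.27) and 0.25 (SE 0.08, adjusted p = 0.145). Exons of the gene AC167363.2 lie on the opposite strand of Cdkn1a, and since the strand setting of the counting is not given in the sources used here, its reads may be included.

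Plk2, a polo-like kinase, and Btg2, an antiproliferative cofactor of mRNA decay, had the largest changes of the cell cycle group. On ER ribosomes Plk2 was at 54.4 and 60.6 CPM in scramble and at 88.1, 86.4 and 88.7 after Gnl3 siRNA, a log2 change of 0.60 (SE 0.07, adjusted p = 4.77e-06). In whole-cell RNA it was at 46.0, 39.5 and 51.3 in scramble and at 73.6 and 69.9 after Gnl3 siRNA, a log2 change of 0.65 (SE 0.08, adjusted p = 2.82e-05). For this gene the groups were far apart relative to the spread within them in both fractions. Btg2 was at 46.6 and 46.4 CPM in scramble on ER ribosomes and at 72.7, 71.1 and 67.5 after Gnl3 siRNA. Its whole-cell values were 32.2, 32.2 and 32.3 in scramble and 45.3 and 42.2 after Gnl3 siRNA. The log2 change of Btg2 was 0.59 (SE 0.07, adjusted p = 1.02e-05) and 0.44 (SE 0.08, adjusted p = 0.00257).

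The remaining cell cycle members moved less. Gtse1, a microtubule-binding protein that restrains p53, was at 164 and 173 CPM in scramble ER libraries and at 222, 201 and 217 after Gnl3 siRNA, and at 178, 176 and 188 against 219 and 216 in whole-cell RNA. Its log2 changes were 0.33 (SE 0.05, adjusted p = 0.000268) and 0.27 (SE 0.06, adjusted p = 0.0103). Psrc1, a spindle protein, was at 199.8 and 218 CPM against 249, 246 and 245 on ER ribosomes and at 168, 170.3 and 176 against 206 and 204 in whole-cell RNA. Both genes thus separated the Gnl3 from the scramble libraries in each fraction. The log2 changes of Psrc1 were 0.23 (SE 0.05, adjusted p = 0.00626) and 0.26 (SE 0.06, adjusted p = 0.0183). Ccng1, cyclin G1, was at 161 and 173 CPM against 196, 192 and 191 on ER ribosomes, and at 167, 158 and 156 against 219 and 194 in whole-cell RNA. It was called in whole-cell RNA at a log2 change of 0.36 (SE 0.06, adjusted p = 0.000961) and not on ER ribosomes at 0.20 (SE 0.06, adjusted p = 0.0956). Gadd45a, a growth arrest gene, had log2 changes of -0.07 (SE 0.05) and -0.05 (SE 0.06).

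Perp, a p53 effector and a membrane protein of cell junctions, had the smallest adjusted p of the members on ER ribosomes. Its ER values were 96.4 and 90.9 CPM in scramble and 167, 157 and 153 after Gnl3 siRNA. In whole-cell RNA Perp (ENSMUSG00000019851.9) was at 41.2, 40.1 and 38.5 in scramble and at 63.1 and 61.3 after Gnl3 siRNA. The groups stood apart without overlap in each fraction. The log2 change was 0.75 (SE 0.06, adjusted p = 4.97e-09) on ER ribosomes and 0.64 (SE 0.07, adjusted p = 5.34e-06) in whole-cell RNA.

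Trp53inp1, a stress protein of p53-dependent apoptosis and autophagy, was at 98.9 and 106 CPM in scramble ER libraries and at 143, 139.9 and 143 after Gnl3 siRNA. Its whole-cell values were 125, 109.6 and 116 against 169.9 and 167. The log2 changes were 0.46 (SE 0.06, adjusted p = 2.19e-05) and 0.53 (SE 0.06, adjusted p = 5.34e-06). Phlda3, a repressor of Akt signalling, was at 77.8 and 80.1 CPM against 109.9, 103 and 106 on ER ribosomes and at 46.3, 44.3 and 51.1 against 73.2 and 67.1 in whole-cell RNA. Its log2 changes were 0.42 (SE 0.06, adjusted p = 6.38e-05) and 0.57 (SE 0.08, adjusted p = 4.98e-05). Neither gene had overlapping groups in either fraction.

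Bbc3, which encodes the BH3-only killer protein Puma, was at 57.0 in both scramble ER libraries and at 69.5, 73.3 and 77.9 CPM after Gnl3 siRNA, a log2 change of 0.36 (SE 0.07, adjusted p = 0.00297). In whole-cell RNA it was at 42.6, 38.5 and 46.2 against 49.2 and 55.4, a log2 change of 0.31 (SE 0.08, adjusted p = 0.0926). Ei24, an ER membrane protein of autophagy, was at 194 and 187 CPM against 231, 225 and 219 on ER ribosomes, a log2 change of 0.23 (SE 0.05, adjusted p = 0.00546). Its whole-cell values, 124, 118 and 118 against 131 and 127, gave 0.11 (SE 0.07, adjusted p = 0.765). Ei24 has exons of Gm26787 on the opposite strand. Bax, the pore-forming executioner, was at 456 and 437 CPM against 444, 437 and 426 on ER ribosomes, so its groups overlapped, and its log2 changes were -0.05 (SE 0.05) and 0.11 (SE 0.06). The other uncalled apoptosis genes, Pmaip1, Apaf1, Fas, Tnfrsf10b, Pidd1 and Aen, had positive values on ER ribosomes, from 0.09 (SE 0.09) for Pidd1 to 1.43 (SE 0.49, adjusted p = 0.134) for Fas, which had 8 to 12 reads per scramble library.

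**Figure D2:**
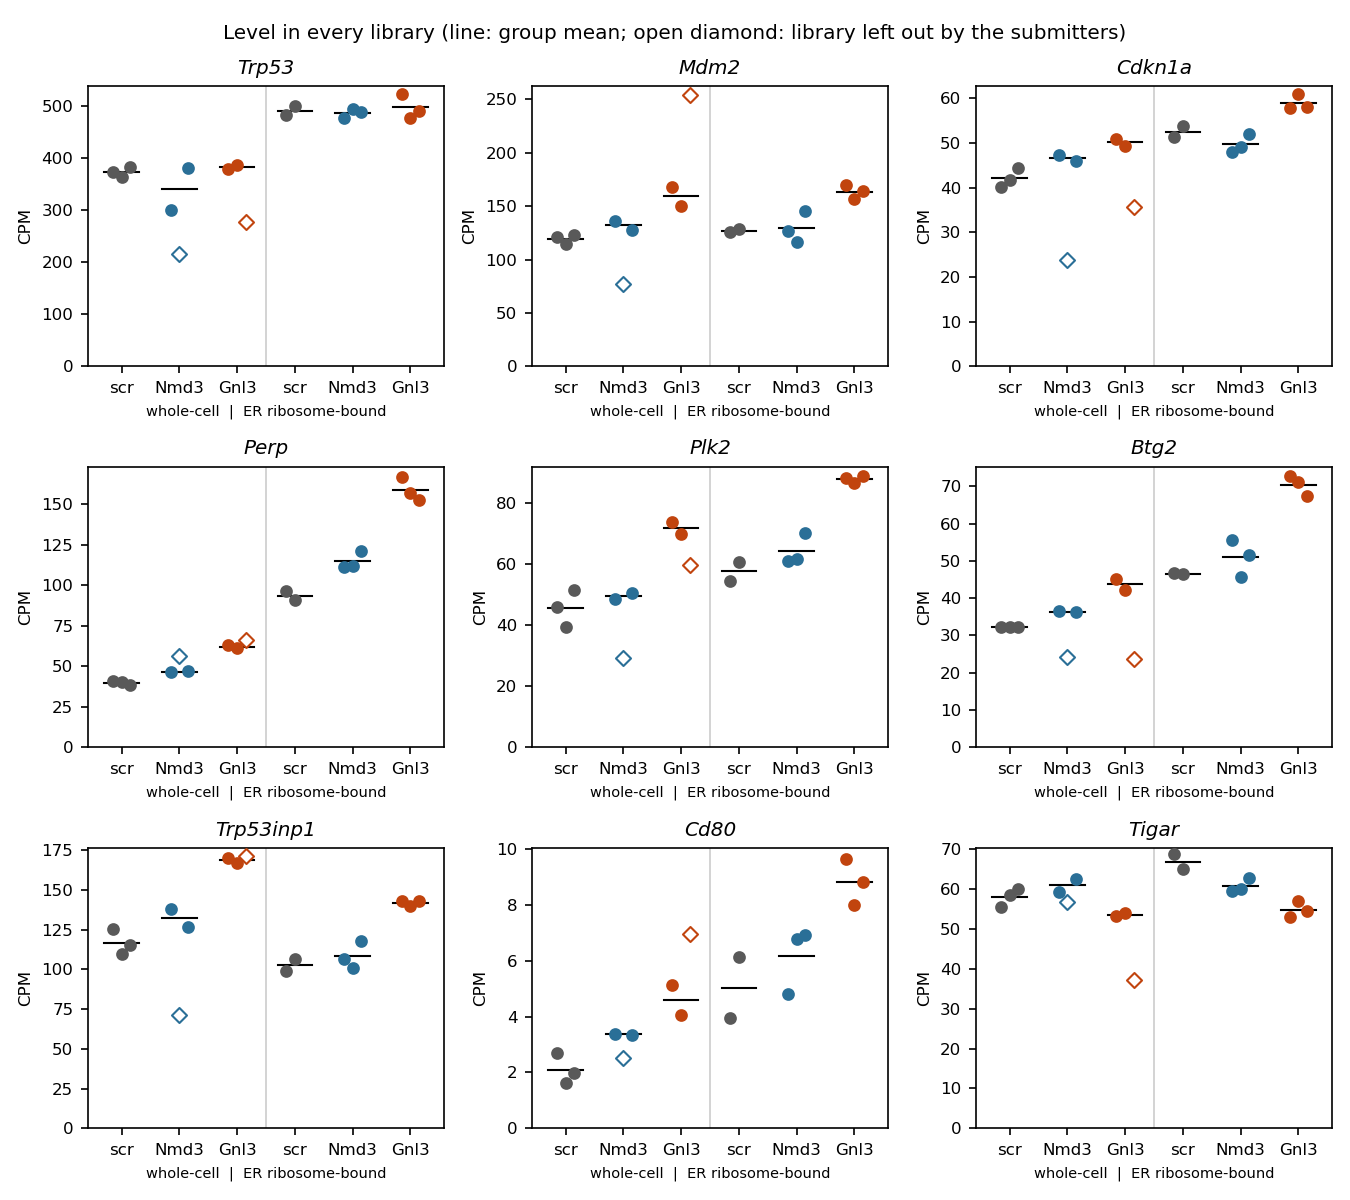
CPM of 9 members in every library (y axis from 0), by siRNA (scr, scramble) and fraction, with lines at group means of the libraries used and open diamonds for the 2 whole-cell libraries that the submitters left out. Perp, Plk2, Btg2 and Trp53inp1 are higher in all Gnl3 libraries used than in all scramble libraries of the same fraction, whereas Trp53 overlaps on ER ribosomes.

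Cd80, an immune costimulatory ligand, had the largest log2 change of the members called, from low levels. It was at 3.94 and 6.13 CPM in scramble ER libraries and at 9.64, 7.99 and 8.82 after Gnl3 siRNA, a log2 change of 0.79 (SE 0.19, adjusted p = 0.0185). In whole-cell RNA it was at 2.698, 1.63 and 1.98 against 5.13 and 4.07, a log2 change of 1.14 (SE 0.23, adjusted p = 0.0094). These values rest on 29 to 45 reads per scramble whole-cell library. Epha2, an ephrin receptor kinase, was at 237 and 249.9 CPM against 342, 321 and 326 on ER ribosomes and at 207, 185 and 208 against 262 and 244 in whole-cell RNA. Its log2 changes were 0.43 (SE 0.08, adjusted p = 0.0126) and 0.34 (SE 0.06, adjusted p = 0.00133). Kitl had values of 0.20 (SE 0.32) and 0.18 (SE 0.29).

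Tigar, a phosphatase that lowers glycolytic flux, was the 1 member that fell. It was at 68.8 and 64.9 CPM in scramble ER libraries and at 52.9, 57.0 and 54.6 after Gnl3 siRNA, a log2 change of -0.30 (SE 0.06, adjusted p = 0.00941). In whole-cell RNA it was at 55.5, 58.6 and 60.1 against 53.2 and 53.9, with a log2 change of -0.11 (SE 0.07, adjusted p = 0.728). All Gnl3 libraries lay below all scramble libraries of their fraction. Exons of Platr31 lie on the opposite strand of Tigar. Gpx1, an antioxidant enzyme, had -0.12 (SE 0.04, adjusted p = 0.107) on ER ribosomes, and the DNA damage recognition genes Ddb2 and Xpc had -0.17 (SE 0.13) and -0.14 (SE 0.08).

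The translesion polymerase Polk had a log2 change of 0.39 (SE 0.13, adjusted p = 0.137) on ER ribosomes, the carbonyl reductase Dcxr 0.28 (SE 0.10, adjusted p = 0.142), and the RNA-binding protein Zmat3 0.16 (SE 0.05, adjusted p = 0.109). In whole-cell RNA the nearest to the threshold among uncalled members were Apaf1, the apoptosome scaffold, at 0.29 (SE 0.08, adjusted p = 0.0888), Bbc3 and the nuclease Ercc5 at 0.27 (SE 0.07, adjusted p = 0.0966). Over both siRNAs and both fractions, 24 of the 38 members were called in none of the 4 comparisons with scramble in the main fits.

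With only 2 scramble ER libraries, several of the 13 ER calls depended on 1 library. The calls over all genes fell as well, so the losses are not particular to the members. Without 1 Gnl3 ER library 1.2% to 1.71% of all genes were called, against 2.68% with all. The share was lower still without 1 scramble ER library. Without scramble replicate 2, 5 members were called (Btg2, Perp, Phlda3, Plk2 and Trp53inp1) and the other 8 had adjusted p-values from 0.0533 to 0.479. Without scramble replicate 3, 8 were called, and Bbc3, Ei24, Epha2, Mdm2 and Tigar had adjusted p-values from 0.0509 to 0.211. Leaving out Gnl3 replicate 1 ended the calls of Cd80, Epha2 and Tigar (0.0673 to 0.107), and leaving out Gnl3 replicate 3 those of Cd80 and Tigar (0.0505 to 0.0702). Btg2, Perp, Phlda3, Plk2 and Trp53inp1 passed in each of the 5 fits without 1 scramble or Gnl3 ER library and in the 6 other settings tried. Epha2 and Tigar did not pass with the replicate number as a block (adjusted p = 0.0532 and 0.0537).

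In whole-cell RNA, leaving out Gnl3 replicate 1 left 4 members called (Perp, Phlda3, Plk2 and Trp53inp1), with adjusted p-values from 0.101 to 0.358 for Btg2, Ccng1, Cd80, Epha2, Gtse1, Mdm2 and Psrc1. Leaving out Gnl3 replicate 2 ended the calls of Cd80, Gtse1 and Psrc1 (0.0567 to 0.207). Without scramble whole-cell replicate 1, 2 or 3, the calls lost were among Cd80, Gtse1 and Psrc1, with adjusted p-values from 0.0586 to 0.165. Of all genes, 0.277% to 0.385% were called in the fits without 1 scramble library, against 0.812% in the main fit. The share was lower still without 1 Gnl3 library. With both libraries that the submitters left out, no member and no other gene was called (adjusted p = 0.999 for each of the 11), and the biological coefficient of variation was 0.316 against 0.059 without them. The log2 changes were then larger than without them for Cd80 (1.43), Mdm2 (0.74), Perp (0.73), Ccng1 (0.66) and Trp53inp1 (0.59). They were smaller for Plk2 (0.62), Btg2 (0.24), Phlda3 (0.20), Psrc1 (0.20), Epha2 (0.13) and Gtse1 (0.09).

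The changes after Gnl3 siRNA were set side by side in both fractions. Across the 37 members tested in both, Pearson's r between the ER and the whole-cell log2 changes was 0.90 and Spearman's rho 0.86, and 30 members were positive and 5 negative in both. With both left-out libraries in the whole-cell fit, r was 0.71 and rho 0.59, and 26 members were positive and 5 negative in both. The points are genes measured in the same cultures, since both fractions came from 1 lysate, so they are not independent replicates. In a test of the interaction between Gnl3 siRNA and fraction, 0 of 38 members and 0 of 18271 genes (0%) were called by edgeR, with 649 genes and 0 members at an unadjusted p under 0.05, and DESeq2 called 0 genes. With both left-out libraries, edgeR again called 0 genes.

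**Figure D3:**
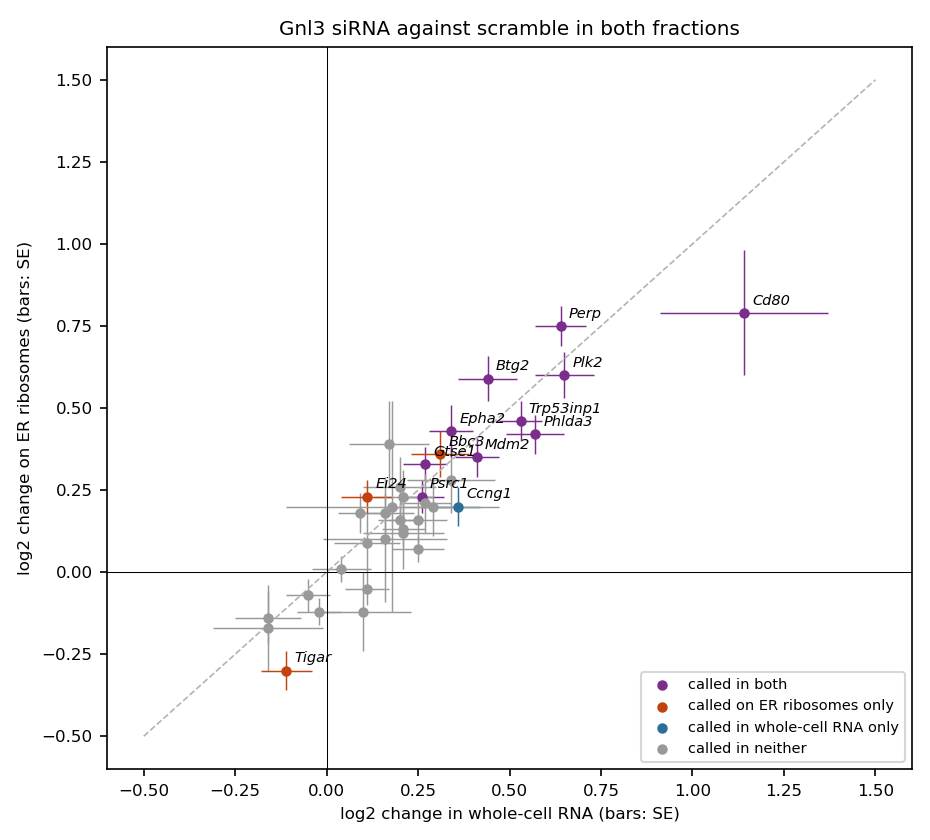
Log2 change after Gnl3 siRNA in whole-cell RNA (x axis) and on ER ribosomes (y axis) for the 37 members tested in both, with SE bars, coloured by the fraction in which each was called; the dashed line marks equal change. The 10 members called in both fractions lie near the line, with Cd80 to the right of it and Perp and Btg2 above it.

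After Nmd3 siRNA, 1 of the 38 members passed the test in 1 fraction. On ER ribosomes Perp rose and no other of the 38 members was called, where 1.17% of all genes tested were called, 0.652% higher and 0.516% lower. Perp was at 111, 112 and 121 CPM after Nmd3 siRNA against 96.4 and 90.9 in scramble, a log2 change of 0.30 (SE 0.06, adjusted p = 0.00506). All Nmd3 libraries lay above both scramble libraries. Of the 38 members 7 separated from scramble in this way and 5 the opposite way, where 12.7% and 14.5% of all genes did. The call was lost without scramble replicate 2 (0.35, adjusted p = 0.0655) or replicate 3 (0.25, adjusted p = 0.315). Epha2, at 269, 320 and 273 CPM against 237 and 249.9, had a log2 change of 0.25 (SE 0.08, adjusted p = 0.192). Epha2 passed without Nmd3 replicate 2 (adjusted p = 0.0406) and under DESeq2 (adjusted p = 0.0424), and Zmat3 passed without Nmd3 replicate 3, as lower (adjusted p = 0.0425).

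After Nmd3 siRNA the ER values of Mdm2 were 126, 117 and 146 CPM, a range that holds both scramble values, and at 136 and 128 in whole-cell RNA, above the 3 scramble values. Its log2 changes were 0.03 (SE 0.06) and 0.13 (SE 0.06, adjusted p = 0.481). The ER values of Cdkn1a were 48.1, 49.0 and 52.0 CPM, and it was at 47.2 and 45.9 in whole-cell RNA, with log2 changes of -0.07 (SE 0.07) and 0.14 (SE 0.08, adjusted p = 0.573). Neither gene was called.

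In whole-cell RNA, 0 of 37 members were called after Nmd3 siRNA by edgeR, where 0.166% of all genes were called (0.0629% higher and 0.103% lower), and 0 by DESeq2, with 10 members and 1694 of all 17490 genes at an unadjusted p under 0.05. The member nearest to the threshold was Phlda3, at 63.7 and 55.4 CPM against 46.3, 44.3 and 51.1 in scramble, a log2 change of 0.32 (SE 0.08, adjusted p = 0.0922). Perp was at 46.3 and 47.2 CPM against 38.5 to 41.2, a change of 0.22 (SE 0.08, adjusted p = 0.299). In 12 members both Nmd3 libraries lay above the 3 scramble libraries, in none below, and in 26 the groups overlapped, where 12.6% of all genes lay above and 12.2% below. With both libraries left out by the submitters, 0 members and 0 genes were called (0.44 for Phlda3 and 0.51 for Perp, adjusted p = 0.852 for each). Without Nmd3 replicate 3, which leaves replicate 1 alone, 4 members were called, in a fit that called 5.7% of all genes (1024 of 17957): Phlda3 and Trp53inp1 higher (0.41 and 0.22) and Trp53 and Ei24 lower (-0.33 and -0.34). Under the interaction of Nmd3 siRNA with fraction, 0 of 38 members and 0 of 18271 genes (0%) were called by edgeR, with 1078 genes and 4 members at an unadjusted p under 0.05. DESeq2 called 2 genes and no member, and without Nmd3 whole-cell replicate 3 the interaction of Trp53 (0.34, adjusted p = 0.00443) and of Ei24 (0.40, adjusted p = 0.00387) passed, among 304 of 19015 genes (1.6%). With both left-out libraries, 0 genes passed.

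Since both siRNAs are set against the same scramble libraries, the 2 siRNAs were compared with each other directly. On ER ribosomes 17 of 38 members were lower after Nmd3 than after Gnl3 siRNA and none was higher, where 2.19% of all genes were called, 0.987% higher and 1.21% lower. Of the genes called, 45.0% were higher after Nmd3 siRNA, and 34.8% when libraries were scaled by their totals only. The 17 held 6 of the 7 cell cycle genes and 7 of the 12 apoptosis genes, with Mdm2, Polk, Dcxr and Zmat3. Perp differed by -0.45 (SE 0.05, adjusted p = 4.7e-06), Btg2 by -0.45 (SE 0.06, adjusted p = 8.48e-05), Plk2 by -0.43 (SE 0.06, adjusted p = 7.75e-05) and Trp53inp1 by -0.37 (SE 0.05, adjusted p = 8.48e-05).

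This direct comparison called members that neither comparison with scramble called on ER ribosomes. Pmaip1, the BH3-only protein Noxa, was at 47.3, 36.9 and 45.8 CPM after Nmd3 siRNA and at 62.3, 58.2 and 55.6 after Gnl3 siRNA, with scramble between them at 49.1 and 50.4. The difference was -0.42 (SE 0.07, adjusted p = 0.00096). Cdkn1a differed by -0.23 (SE 0.06, adjusted p = 0.0397) and Zmat3 by -0.31 (SE 0.05, adjusted p = 0.000208). Polk (-0.49, SE 0.12, adjusted p = 0.0261), Dcxr (-0.46, SE 0.09, adjusted p = 0.00268), Ccng1 (-0.27, SE 0.05, adjusted p = 0.00703) and the nuclease Aen (-0.20, SE 0.05, adjusted p = 0.0246) were also lower. Trp53 (-0.01, SE 0.04) and Bax (-0.02, SE 0.05) had values near 0. Without Gnl3 replicate 1, 11 of the 17 were called, in a fit that called 0.907% of all genes. Aen, Ccng1, Cdkn1a, Ei24, Polk and Psrc1 had adjusted p-values from 0.0682 to 0.212 there. Cdkn1a also missed the threshold without each of the other Gnl3 libraries, without Nmd3 replicate 1 (0.125 to 0.211 and 0.14) and with the replicate block (0.0689).

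In whole-cell RNA 4 of 37 members were lower after Nmd3 than after Gnl3 siRNA and none was higher, where 0.212% of all genes were called, 0.103% higher and 0.109% lower. These were Plk2 (-0.54, SE 0.09, adjusted p = 0.00317), Trp53inp1 (-0.36, SE 0.07, adjusted p = 0.0102), Perp (-0.42, SE 0.08, adjusted p = 0.0126) and Gtse1 (-0.29, SE 0.06, adjusted p = 0.0379). None passed without Gnl3 replicate 1 (adjusted p from 0.15 to 0.431), and Plk2 alone passed without Gnl3 replicate 2. Without Nmd3 replicate 3, 13 passed, in a fit that called 5.47% of all genes (983), and with both libraries left out by the submitters none did (adjusted p from 0.562 to 0.692). Perp did not pass with the replicate block (adjusted p = 0.0522).

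On ER ribosomes relative to whole-cell RNA, members differed in both directions. In scramble cells 20 of 38 were higher on ER ribosomes and 7 lower, where 50.3% of all 18271 genes were called, 25.1% higher and 25.3% lower, and the median log2 ratio was 0.25 against 0.02 for all genes. After Nmd3 siRNA 16 were higher and 7 lower (50.1% of all genes called, 24.5% higher and 25.6% lower), and after Gnl3 siRNA 19 and 7 (48.1%, 23.3% higher and 24.9% lower). Cd80 and Perp had the highest ratios in scramble cells. Perp was at 96.4 and 90.9 CPM on ER ribosomes and at 41.2, 40.1 and 38.5 in whole-cell RNA, a log2 ratio of 1.21 (SE 0.06, adjusted p = 8.39e-18), higher than that of 97.8% of all genes. The ratio of Perp was 1.29 (SE 0.07) after Nmd3 siRNA and 1.31 (SE 0.06) after Gnl3 siRNA. Cd80 had 1.25 (SE 0.23, adjusted p = 1.76e-05). Fas, named after its values were seen, had the highest ratio of the members after Gnl3 siRNA, at 2.22 (SE 0.57). It was at 1.86, 1.37 and 1.10 CPM on ER ribosomes against 0.395 and 0.214 in whole-cell RNA. Fas did not pass the count filter in whole-cell RNA alone. It entered this fit through its ER reads, 18 to 41 per Gnl3 library against 4 and 6 in whole-cell RNA. Such a filter favours a high ratio, so no p-value is given for Fas, which is counted among the 19 higher after Gnl3 siRNA. The ratio of Fas was 1.29 (SE 0.64) after Nmd3 siRNA and 0.65 (SE 0.60) in scramble cells, neither of them called, and the interaction with Gnl3 siRNA was not called. Ei24 had 0.64 (SE 0.06) in scramble cells, 0.85 (SE 0.07) after Nmd3 siRNA and 0.76 (SE 0.07) after Gnl3 siRNA.

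The death receptor Tnfrsf10b was at 80.3 and 83.9 CPM on ER ribosomes and at 45.2, 43.3 and 48.4 in whole-cell RNA, a ratio of 0.82 (SE 0.07, adjusted p = 5.32e-12). Bax was at 456 and 437 against 238, 263 and 249, a ratio of 0.81 (SE 0.05, adjusted p = 4.58e-15). Ercc5, a nuclear repair endonuclease, was at 25.0 and 27.1 against 45.0, 43.3 and 47.2, a ratio of -0.82 (SE 0.09, adjusted p = 3.76e-10). For all 3 genes the fractions were far apart. Trp53 had a ratio of 0.37 (SE 0.07, adjusted p = 0.000246). The 7 members lower on ER ribosomes in scramble cells were Mdm4 (-0.79), Apaf1, Trp53inp1, Polk, Ercc5, Rrm2b and Zmat3. Mdm4, Apaf1 and Ercc5 passed without each of the 5 scramble libraries, whereas Trp53inp1, Polk and Zmat3 missed the threshold without ER replicate 2 (adjusted p = 0.0899, 0.06 and 0.0688) and Rrm2b without ER replicate 3 (0.0867) or whole-cell replicate 1 (0.0603), as did Trp53inp1 without the latter (0.054). With both libraries left out by the submitters in the fit, 12.7% of all genes and 6 members were called in scramble cells, and Perp (1.20), Cd80 (1.24), Tnfrsf10b (0.82) and Ercc5 (-0.82) were among them, whereas Bax (adjusted p = 0.257) and Trp53 (adjusted p = 0.124) were not.

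The ratio followed the coding length across members. Its Pearson correlation with log2 coding length was -0.51 over the 38 members (Spearman's rho -0.52), given as a description because the members share libraries. The members were divided into 7 that encode surface or ER membrane proteins, which are made on ER ribosomes (Perp, Cd80, Epha2, Kitl, Fas, Tnfrsf10b and Ei24), and 31 others. Of the 7, 5 were higher and none lower, with a median of 0.65, and after subtraction of the trend of all genes with coding length the median was 0.61, with 6 of 7 above the trend. The median of 0.65 is the value of Fas, which entered the fit through its ER reads and was not called in scramble cells. Of the 31 others, 15 were higher and 7 lower, with a median of 0.13, and 0.00 after subtraction of the trend. Epha2, with a coding length of 2931 bases, had a ratio of 0.26 (SE 0.07), which was 0.61 above the trend at that length. Kitl, at 1.06 to 2.90 CPM, had -0.65 (SE 0.32) and was not called. Without scramble whole-cell replicate 1 or ER replicate 2 Kitl passed as lower (-0.85 and -1.14, adjusted p = 0.034 and 0.0338), and without ER replicate 3 Epha2 missed the threshold (0.21, adjusted p = 0.0667). This division was made with the values known, and the difference between the 2 sets was not tested.

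**Figure D4:**
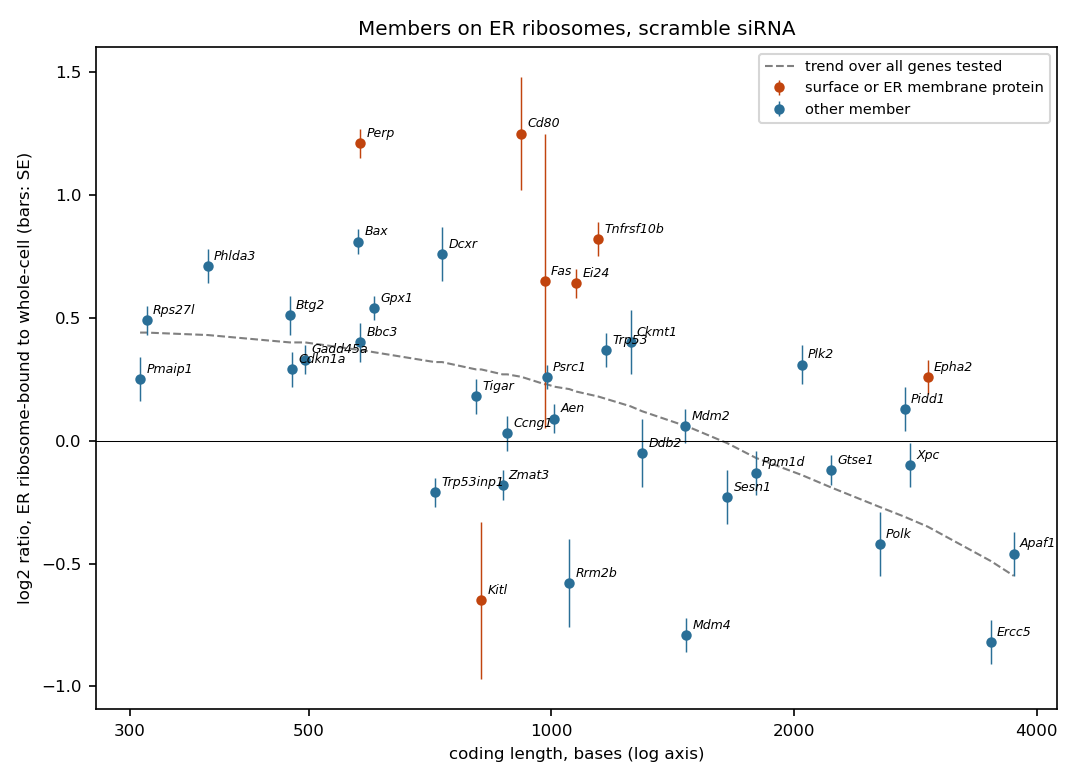
Log2 ratio of ER ribosome-bound to whole-cell RNA in scramble cells (y axis, SE bars) against coding length in bases (log x axis) for the 38 members, with members encoding surface or ER membrane proteins in red and the trend over all genes dashed. Of the 7 red points 6 lie above the trend, with Perp and Cd80 highest and Kitl below it.

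The rest of the pathway was followed in 4 lists examined in the same fits. Of 47 further p53 targets, 46 were tested, and 14 rose and 1 fell on ER ribosomes after Gnl3 siRNA, with a list median of 0.18 against 0.00 for all genes. Over all genes tested there, 1.51% were called higher and 1.17% lower. The lists were written with earlier results of these data known. Among those that changed were Lif, the cytokine that is also added to the medium, at 0.59 (SE 0.16, adjusted p = 0.044), Nupr1, a stress-induced chromatin protein, which fell by 0.44 (SE 0.08, adjusted p = 0.00272), and the lipase Abhd4 at 0.42 (SE 0.07, adjusted p = 0.000591). In whole-cell RNA 4 rose, namely Inka2 (0.79, SE 0.18, adjusted p = 0.0232), the death-domain receptor Eda2r (0.42, SE 0.08, adjusted p = 0.00592), the phosphatase Ptpn14 (0.40, SE 0.06, adjusted p = 0.000448) and the kinase Plk3 (0.39, SE 0.08, adjusted p = 0.0138), and Nupr1 fell by 0.45 (SE 0.11, adjusted p = 0.0457). Over all genes tested in whole-cell RNA, 0.515% were called higher and 0.297% lower. Of the 46, 35 had positive values on ER ribosomes and 34 in whole-cell RNA, and the interaction with fraction called none. With both left-out libraries, 0 of all genes were called in whole-cell RNA, and so none of this list.

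After Nmd3 siRNA 4 of these 46 rose on ER ribosomes, namely Igfbp3, a binding protein of insulin-like growth factors (0.42, SE 0.07, adjusted p = 0.00195), Abhd4 (0.37, SE 0.07, adjusted p = 0.00533), Plk3 (0.34, SE 0.08, adjusted p = 0.0212) and the iron reductase Steap3 (0.32, SE 0.08, adjusted p = 0.0486). None was called in whole-cell RNA. Over all genes tested after Nmd3 siRNA, 1.17% were called on ER ribosomes and 0.166% in whole-cell RNA. Igfbp3 and Abhd4 were also higher after Gnl3 siRNA on ER ribosomes, at 0.36 (SE 0.07, adjusted p = 0.00427) and 0.42. Both comparisons use the same 2 scramble libraries.

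Genes upstream of p53 and genes that p53 lowers gave few calls. In the 4 comparisons with scramble 0.166% to 2.68% of all genes were called, so few calls would be found in any lists of this size. Of 31 tested kinases and cofactors of p53 none was called on ER ribosomes against scramble, and in whole-cell RNA 1 was, the RNA-binding protein Rbm38, which is also a p53 target, at 0.28 (SE 0.07, adjusted p = 0.0367) after Gnl3 siRNA. The deacetylase Sirt1, which acts on p53, was higher after Nmd3 than after Gnl3 siRNA on ER ribosomes by 0.36 (SE 0.06, adjusted p = 0.00062), and Rbm38 was lower (-0.19, SE 0.05, adjusted p = 0.0364). None of 27 cell cycle genes that p53 lowers through p21 and the DREAM complex was called in any of the 4 comparisons with scramble, and their medians ran from -0.01 to 0.05. None of 17 genes for the 5S particle and nucleolar p53 regulators was called in these comparisons, and their medians ran from -0.07 to 0.04.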

How the data were processed

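Raw counts per gene, 1 file per library, were deposited by the authors. Per the submitters' processing notes STAR 2.7.9a, HTSeq 0.11.2, DESeq2 (no version) and the build GRCm39 were used. The annotation release and strand setting are not given in the sources used here. The 5 HTSeq lines that name no gene were left out of totals and tests: no feature took 46.6% to 48.3% of entries, not unique 5.1% to 10.2% and ambiguous 0.36% to 0.57%. Symbols came from GENCODE M21 (52083 of 55416 IDs), as did coding lengths and overlaps. Promoters came from RefSeq (GRCm38.p6), and gene coordinates of GRCm39 are not given.

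Levels are counts per M gene counts (CPM). Tests used R 4.3.3 and edgeR 4.0.16 (quasi-likelihood F test after filterByExpr and TMM scaling, robust fit), with Benjamini-Hochberg adjustment over all genes tested, called at adjusted p under 0.05: 8 ER libraries, 7 whole-cell libraries, or all 15 for comparisons between fractions and interactions. The SE is the absolute log2 change divided by the square root of F. Alternatives were DESeq2 1.42.0, other scalings, no filter, fewer groups in the fit and a block. The block was the replicate number within a fraction, and the lysate for comparisons between fractions and interactions. Other fits put back the 2 libraries left out, or left out in turn each library of the groups compared. The fits were tested on simulated counts.

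Both fractions of a replicate come from 1 lysate, per the series' design text, and pair by design. Their deviations from group means correlated at -0.03 to 0.02. Libraries of 1 group differed by more than sampling noise (chi-square of at least 2.1 per gene), so none repeated the counts of another in its group. Libraries of different groups were not compared in this way. Nmd3 ER replicate 2 differed from the others of its group at 9.3 and 11, and the Nmd3 whole-cell libraries used differed at 9.36. The other pairs of libraries used ran from 2.1 to 4.09, and the part of this spread in the Nmd3 results was not tested.

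Named with the value of every library compared were Trp53, Mdm2, Cdkn1a and each member called against scramble, up to 12 per comparison. The siRNA targets were named with ranges on ER ribosomes and with log2 changes in whole-cell RNA. For the fractions, members with an absolute log2 ratio over 0.8 in scramble cells were named, and from each further list up to 4 called genes with the largest change. A gene of these lists that the rule would name is not reported here. The members and lists were chosen with earlier results of these data known. A planned description of protein hydropathy was not analysed here.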

Additional observations from a re-analysis of the deposited data

Results flagged for a closer look

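The 2 whole-cell libraries that the submitters left out were set against the 3 scramble whole-cell libraries, because they stand outside the main comparisons. The share of all genes outside the scramble range in these 2 libraries was not counted. The counts below therefore describe the libraries and are not a result particular to the members. In Gnl3 replicate 3, 17 of the 38 members lay above the scramble range and 17 below. Mdm2 was at 254 CPM there, Ccng1 at 312, Perp at 66.3, Trp53inp1 at 171 and Cd80 at 6.96, above the scramble range, whereas Btg2 (23.6), Phlda3 (19.9), Epha2 (134), Gtse1 (126) and Bax (78.6) were below it. Of the 11 members that rose after Gnl3 siRNA in whole-cell RNA, 6 were above and 5 below.

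In Nmd3 whole-cell replicate 2, 8 members lay above the scramble range and 23 below. Bax was at 536 CPM, Rps27l at 505, Gadd45a at 235 and Perp at 56.1, above the range, and Trp53 (216), Mdm2 (76.6), Cdkn1a (23.7) and Epha2 (67.6) were below it. These are values of single libraries, with no test and no share over all genes beside them.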

How the results depend on the processing

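Where a group kept 1 library, it was assumed to vary like the others. For each comparison only libraries of its own groups were left out in turn. The Nmd3 libraries, which share in the estimate of spread, thus stayed in the fits for Gnl3 against scramble. The share of all genes called changed in these fits too, so the ranges are not particular to the members. With each library left out in turn, the members called ranged from 5 to 13 for Gnl3 against scramble on ER ribosomes (13 with all) and from 4 to 9 in whole-cell RNA (11 with all). For Nmd3 against scramble they ranged from 0 to 2 on ER ribosomes (1 with all) and from 0 to 4 in whole-cell RNA (0 with all). For Nmd3 against Gnl3 they ranged from 11 to 19 on ER ribosomes (17 with all) and from 0 to 13 in whole-cell RNA (4 with all). Between fractions they were 21 to 26, 22 to 24 and 24 to 26 for scramble, Nmd3 and Gnl3, and for the interactions 0 to 2 (Nmd3) and 0 to 0 (Gnl3). The libraries that moved a count by over 1.5 times are named in the report.

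With both libraries left out by the submitters put back, 0 members were called for Gnl3 against scramble and 0 for Nmd3 against Gnl3 in whole-cell RNA, and 6, 9 and 11 between fractions in scramble, Nmd3 and Gnl3 cells (27, 23 and 26 without). The ratios of Gadd45a (-0.24), Dcxr (-0.15) and Rps27l (-0.22) after Nmd3 siRNA then changed sign, from 0.28, 0.54 and 0.50. Fits of only the groups compared called 24 members for Gnl3 against scramble on ER ribosomes, 17 in whole-cell RNA and 1 for Nmd3 against Gnl3 in whole-cell RNA. With no filter the counts were 2 for Nmd3 on ER ribosomes, 1 for Nmd3 in whole-cell RNA (Phlda3) and 8 for Nmd3 against Gnl3 in whole-cell RNA. DESeq2 called 2 and 7 in the first and last of these. The cause of these differences was not tested.

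The replicate number as a block gave 1, 11 and 16 members on ER ribosomes (Nmd3, Gnl3, Nmd3 against Gnl3) and 0, 12 and 3 in whole-cell RNA. Between fractions and for the interactions the block was siRNA and replicate together, which pairs the fractions of 1 lysate. It gave 26, 22 and 26 members between fractions (scramble, Nmd3, Gnl3) and 0 and 0 for the interactions. Between siRNAs, same-numbered libraries share only a number (correlation of deviations -0.05 to 0.03 on ER ribosomes, -0.02 to 0.04 in whole-cell RNA). Over all genes, the replicate number as a block gave 126 calls for Nmd3 on ER ribosomes (206 without) and 258 for Gnl3 (472). In whole-cell RNA it gave 63 for Nmd3 against Gnl3 (37). Only the groups compared gave 86 and 1312 in place of 206 and 472, and 17, 272 and 16 in whole-cell RNA in place of 29, 142 and 37. No filter gave 407 for Nmd3 and 586 for Nmd3 against Gnl3 (387) on ER ribosomes, and 115 and 122 in whole-cell RNA. Members with few reads (Fas, Kitl, Cd80) are limited by depth.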
